A study of Rattus norvegicus with 6 samples.

Results

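Expression of 9 genes, 8 for calcium-dependent kinases and a phosphatase of synaptic plasticity and 1 for a transcription factor they act on, was followed in the hippocampus of male Wistar rats with chronic cerebral hypoperfusion. The members were Camk2a, Camk2b, Camk2d and Camk2g (the 4 subunits of CaM kinase II), Camk4, Camkk2, Ppp3ca, Prkca and Creb1. They were chosen by name, as the non-control probes whose gene name or transcript accession in the array files belongs to 1 of these genes. This gave 12 probes of 30367 and 9 genes of 17428 with a name. Camk2b, Camk2d and Prkca each had a second probe.

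Calcium that enters a neuron through NMDA receptors and voltage-gated channels binds calmodulin, which switches on several kinases and the phosphatase calcineurin. CaM kinase II is a ring of subunits that, once active, keeps itself active by phosphorylating itself, and it is required for long-term potentiation in the hippocampus. Calcineurin works in the other direction and is linked to long-term depression, whereas CaM kinase kinase and CaM kinase IV carry the signal to CREB, which switches on genes needed for lasting memory.

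RNA was pooled and hybridised to 6 one-colour Agilent arrays, 1 per group. The occlusion groups were sampled on day 21, 35, 45, 55 or 70 following permanent bilateral common carotid artery occlusion under isoflurane, in which both arteries were double ligated with silk, and the remaining group is labelled control. The labels give ages of 13, 14, 15, 16 and 17 weeks for these 5 groups in that order and 12 weeks for the control, so age moved with time after occlusion. The ages rise by less than the days between groups, so by these labels age at occlusion differed too. How many animals a pool held is not stated in the sources used here, nor is any sham surgery of the control rats. With a single array for each group there was no measure of the variation among animals, and no test was made.

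Signals are given in intensity units scaled to the control array, and differences as log2 of a day minus control. Differences were counted past 2-fold and past a smaller threshold of 0.32 log2 units. Since 1390 probes were printed 10 times on each array, the spread between spots of such probes at a similar level gave a technical SD for a difference between arrays. This SD covers spot noise alone, not pooling, labelling or animals. Slide 1 carried the control array with days 21 and 35, and slide 2 carried days 45, 55 and 70, so slide and late time points cannot be told apart in a difference from the control. All 12 probes were well above background on all 6 arrays and none was saturated. Between 74.5% and 80.2% of spots per array were well above background, and the 75th percentile of signal ranged from 1243 to 1504. Levels of different probes are not set against each other, because probes differ in brightness.

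Of the general neuronal markers, all 10 were measured, and their summed signal was 96377 at day 21 and 107144 in the control, with 104947 to 109695 at the other days. With all 15 measured, the microglial markers summed to 107784 at day 21 and 34588 in the control, with 33519 to 39562 at the other days. The 8 choroid plexus markers summed to 67773, 34660 and 57800 at days 21, 35 and 70, against 4132 in the control and 3961 and 4055 at days 45 and 55. Hippocampal pyramidal cell markers were present, with a sum of 49260.5 in the control, 43163 at day 21, 57062 at day 35, 52901 at day 45, 51221 at day 55 and 58523 at day 70. In bulk RNA, fewer cells of a type and less RNA per cell cannot be told apart.

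The probes on which the results turn are 60 bases long and are placed by the array files on genome build rn4. No annotation of that build was used here, so exons and untranslated regions are not assigned. The Camk2b probe (chr14:86635462-86635521, minus strand) and the Camk2g probe (chr15:3783656-3785221, plus strand, split over the genome) overlap in a stretch that the subunits have in common. Over 56 aligned bases 45 were identical, and the 11 that differ are in capitals. The other 65 probe pairs of the members reached at most 59.4% identity.
Camk2b: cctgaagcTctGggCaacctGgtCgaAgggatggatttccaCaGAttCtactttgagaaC
Camk2g: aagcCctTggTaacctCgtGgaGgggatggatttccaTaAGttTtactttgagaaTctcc

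Camk2d and Prkca had probe pairs that gave different profiles, and these are shown because each gene's result depends on which probe is read. The Camk2d probe used for the gene lies at chr2:224108020-224108079 (plus strand, transcript position 2238) and the other at chr2:224105080-224105139 (position 1628). The Prkca probe printed 10 times lies at chr10:97368739-97368798 (minus strand, transcript position 2099) and the single-spot probe at chr10:97367242-97367301 (position 3596). The first 30 bases of each are given, with no capitals since nothing in them is marked.
Camk2d, position 2238: tcaagaatgctgccattaatctatttgggc
Camk2d, position 1628: acagtacatggatggaaatggaatgccaaa
Prkca, position 2099: acatagaccagtctgattttgaagggttct
Prkca, position 3596: ccgctaccccacacactggcactctatcag

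None of the 9 members differed from the control by 2-fold at any day. Of all genes compared, 5.4% did so at day 21, 1.55% at day 35, 6.33% at day 45, 5.55% at day 55 and 7.3% at day 70. With 9 genes and such shares, the absence of a member past 2-fold is near the background and no result about the members. The largest differences were in Camk2d, whose brighter probe read 1.99-fold lower at day 45, and in Creb1, which was 1.52-fold higher at day 21. Ppp3ca and the brighter Camk2b probe were both lowest at day 21 and highest at day 35, whereas the second Camk2b probe was lowest at day 55. The neuron-enriched Camk2a stayed within 1.23-fold of the control throughout.

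**Figure D1:**
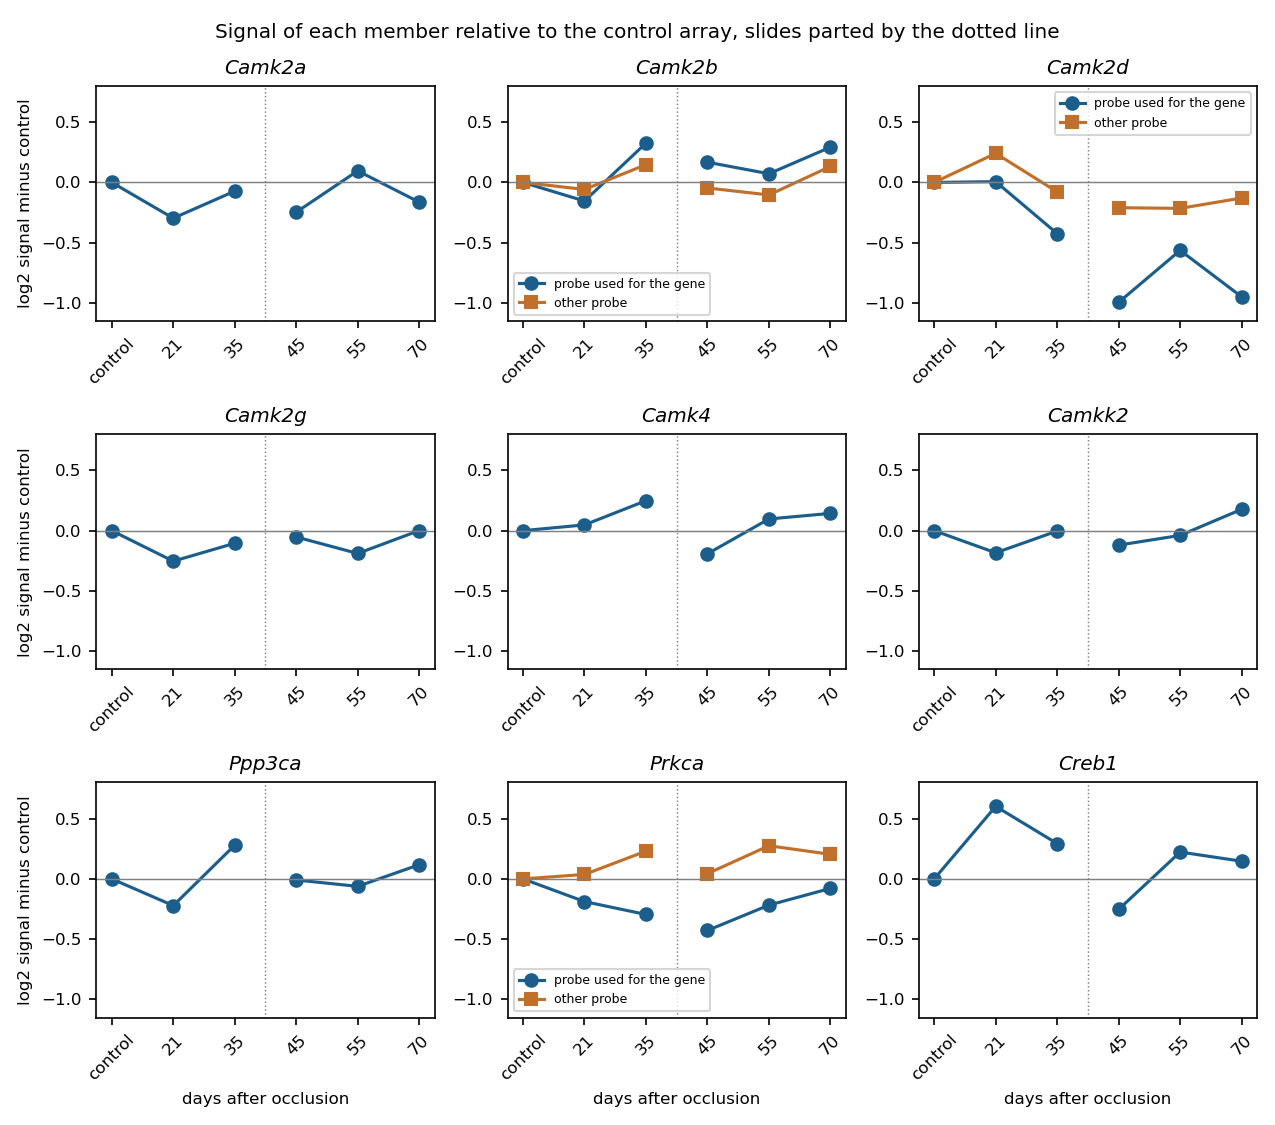
Log2 signal of each member minus its own control value (vertical axis) for the control and the 5 days after occlusion (horizontal axis). Circles are the probe used for the gene, squares the other probe, each point is 1 array, and the dotted line parts the 2 slides. Camk2d has the lowest point, -0.99 at day 45, and Creb1 the highest, 0.60 at day 21.

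Camk2a encodes the alpha subunit of CaM kinase II, the main subunit of forebrain excitatory neurons, whose messenger RNA also travels into dendrites. Its probe (chr18:56904401-56918266, plus strand, split over the genome) read 1494 in the control, 1216 at day 21, 1421 at day 35, 1259 at day 45, 1597 at day 55 and 1334 at day 70. Days 21 and 45 were the low arrays and day 55 the only one above the control. The differences were -0.30, -0.07, -0.25, 0.10 and -0.16 from day 21 to day 70, with spot SDs of 0.086 to 0.092. On the late slide, day 55 was 0.34 above day 45.

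Camk2b encodes the beta subunit, which anchors the kinase ring to actin. Its brighter probe read 8617 in the control, 7744 at day 21, 10802 at day 35, 9679 at day 45, 9059 at day 55 and 10553 at day 70. Day 21 was the only array below the control, and days 35 and 70 were the high ones. The differences were -0.15, 0.33, 0.17, 0.07 and 0.29. The second probe (chr14:86645232-86645447, minus strand) read 4458 in the control, 4282, 4938, 4318, 4148 and 4887 at days 21, 35, 45, 55 and 70. It placed the same 2 days, 35 and 70, above the control, but with differences of 0.15 and 0.13, and it was slightly below the control at days 45 and 55.

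Camk2d encodes the delta subunit, which is found in most tissues and is the chief form in heart and vessels. The brighter probe read 110.6 in the control, 111.1 at day 21, 82.4 at day 35, 55.5 at day 45, 74.9 at day 55 and 57.3 at day 70. The control and day 21 arrays were alike, and the 4 later arrays were all lower. The differences were 0.01, -0.42, -0.99, -0.56 and -0.95, with spot SDs of 0.14 to 0.17.

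The second Camk2d probe read 73.6 in the control, 87.0 at day 21, 69.7 at day 35, 63.6 at day 45, 63.4 at day 55 and 67.3 at day 70. It too had its lowest arrays among the late days, but its differences were 0.24, -0.08, -0.21, -0.22 and -0.13, none past 0.32. With quantile normalization the second probe stood above the control at all 5 days, at 0.04, 0.19, 0.03 and 0.20 on days 35, 45, 55 and 70, so its direction depends on the scaling. Both probes were dim. A dimmest class was set by mean signal, as the lowest of 3 equal parts of the genes well above background on any array. The same cut was applied to all genes, and Camk2d fell in this class. In it 29.1% of the genes compared were lower by at least 0.32 at day 35, 54.9% at day 45, 43.6% at day 55 and 52.1% at day 70. Within the late slide, day 55 was 0.43 above day 45 by the brighter probe and -0.01 from it by the other. With normexp background correction, which compresses dim signals, the brighter probe was at -0.24, -0.44, -0.29 and -0.57 at days 35, 45, 55 and 70. In the values deposited by the authors the same 4 differences were -0.15, -0.41, -0.35 and -0.49.

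Camk2g encodes the gamma subunit, known to carry calmodulin from the surface to the nucleus of neurons. It read 1700.2 in the control, 1426 at day 21, 1581 at day 35, 1639.5 at day 45, 1491 at day 55 and 1701 at day 70. Day 70 equalled the control (0.00), and the other 4 days lay below it, day 21 the farthest at -0.25, although scaling by the median put day 45 at 0.07 and day 70 at 0.10. Among the probes used for the 9 genes this one had the narrowest range over the 6 arrays, 1.19-fold between the lowest and the highest.

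Camkk2 encodes CaM kinase kinase 2, which activates CaM kinases I and IV and the energy sensor AMPK. Its probe (chr12:34930464-34934857, plus strand, split over the genome) read 798 in the control, 703 at day 21, 796 at day 35, 734 at day 45, 776 at day 55 and 902 at day 70. Day 70 was the highest array, at 0.18, and day 21 the lowest, at -0.18. Days 35, 45 and 55 lay at -0.00, -0.12 and -0.04, and with scaling by the median slightly above the control, at 0.07, 0.00 and 0.04.

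Camk4 encodes CaM kinase IV, the nuclear kinase that phosphorylates CREB. Its probe (chr18:25625515-25625574, plus strand) read 1399 in the control, 1446 at day 21, 1662 at day 35, 1225 at day 45, 1497 at day 55 and 1545 at day 70. Day 45 was the only array below the control, at -0.19, and day 35 the highest, at 0.25. The spot SD of these differences was 0.086 to 0.092.

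Ppp3ca encodes the alpha catalytic subunit of calcineurin, the calmodulin-dependent phosphatase abundant in hippocampal neurons. Its probe (chr2:234375355-234375414, plus strand) read 10254 in the control, 8793 at day 21, 12446 at day 35, 10188 at day 45, 9822 at day 55 and 11124 at day 70. Days 35 and 70 were the high arrays and day 21 the low one. The differences were -0.22, 0.28, -0.01, -0.06 and 0.12, and between days 35 and 21, on one slide, the difference was 0.50, or 1.42-fold. Camk2b differed by 0.48, or 1.39-fold, between the same arrays, and by 0.21 with its second probe. Across the 6 arrays Pearson's r between Ppp3ca and Camk2b was 0.92, a description of points that share their array's scaling.

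Day 21 was the lowest of the 6 arrays for Camk2a, Camk2b, Camk2g, Camkk2 and Ppp3ca, also under each scaling and background correction tried, although the second Camk2b probe was lowest at day 55. It was also the array with the lowest sum of general neuronal markers, of which 0 of 10 were above the control (median -0.18), and of pyramidal markers, of which 3 of 10 were above it (median -0.23). The microglial markers were above the control in 15 of 15 (median 1.67), the meningeal in 8 of 8 and the choroid plexus in 8 of 8. The part of these shifts in the members' values was not tested. The shares of all genes that were lowest at day 21, or above the control there, were not counted.

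Prkca encodes protein kinase C alpha, a conventional isoform that needs both calcium and diacylglycerol. Its 10 spots averaged 1179 ± 57.6 in the control, 1034 ± 27.7 at day 21, 960.4 ± 41.5 at day 35, 876 ± 38.4 at day 45, 1013 ± 38.7 at day 55 and 1115 ± 31.5 at day 70 (SD between spots of 1 array, n = 10 spots). The 10 spots ranged from 821 to 934 at day 45 and from 1083 to 1275 in the control, so the 2 sets of spots did not overlap. At day 35 they ranged from 875 to 1023, at day 21 from 989.5 to 1073 and at day 55 from 933 to 1064, also below every control spot. At day 70 they ranged from 1071 to 1158 and overlapped those of the control.

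The differences for this Prkca probe were -0.19, -0.30, -0.43, -0.22 and -0.08, each with a spot SD of under 0.03 from 10 spots. Spots of an array are technical repeats of 1 pool and are not replicates of the occlusion. The single-spot probe read 290.4 in the control, 298 at day 21, 341 at day 35, 299 at day 45, 351 at day 55 and 334 at day 70. All 5 days were above the control there, with differences of 0.04, 0.23, 0.04, 0.27 and 0.20, so the probes of this gene gave opposite signs at every day, except that scaling by the median put the 10-spot probe at 0.02 on day 70. Which of them follows the transcript was not tested.

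**Figure D2:**
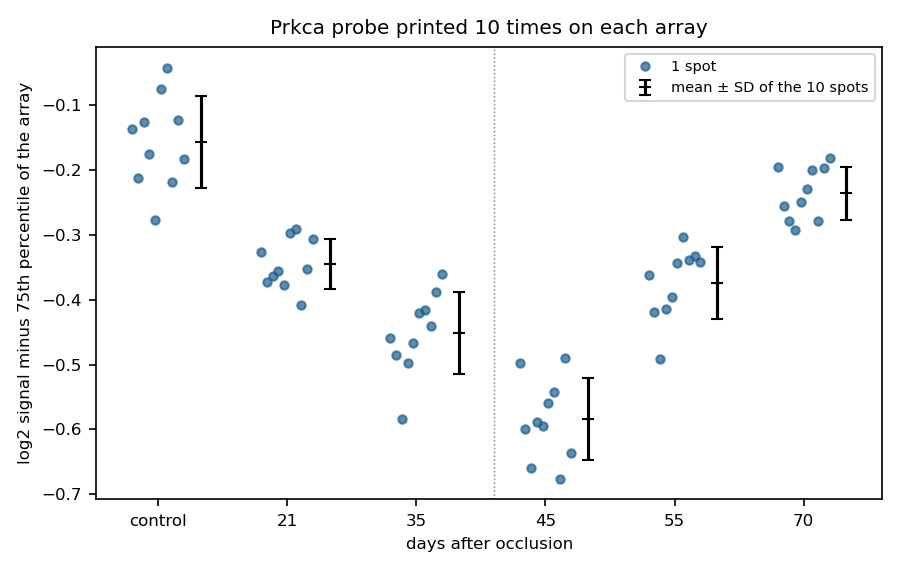
Log2 signal minus the array's 75th percentile (vertical axis) for each of the 10 spots of the Prkca probe on the control and day arrays (horizontal axis, days after occlusion). Points are spots, bars are the mean ± SD of the 10 spots, and the dotted line parts the slides. The day 45 spots lie lowest, and day 70 spots overlap the control spots.

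Creb1 encodes CREB, the factor that binds cyclic AMP response elements and is phosphorylated by CaM kinase IV or protein kinase A. Its probe (chr9:63210434-63210493, plus strand) read 255 in the control, 387 at day 21, 312 at day 35, 214 at day 45, 298 at day 55 and 282 at day 70. Day 21 was the highest array and day 45 the only one below the control. The differences were 0.60, 0.29, -0.25, 0.22 and 0.15. Between days 55 and 45, on the late slide, the difference was 0.48. Under the 8 alternatives tried, Creb1 at day 21 stood at 0.52 to 0.60. The filter for genes well above background on all arrays and the averaging of probes could not change this value. The sequence it was read with is shown because this is the largest day 21 difference of the members.
Creb1: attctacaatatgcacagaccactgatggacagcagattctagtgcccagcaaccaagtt

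At day 21, 1 of 9 members was higher by at least 0.32 log2 units (Creb1), against 13.8% of all genes, and 0 were as much lower, against 16.6%. At day 35, 1 was higher (Camk2b), against 4.67%, and 1 lower (Camk2d), against 13.1%. At day 45, 0 were higher, against 3.02%, and 2 lower (Camk2d and Prkca), against 23.4%. These shares sit near the background, so the counts are no result about the members.

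At day 55, 0 members were higher, against 5.43% of genes, and 1 was lower (Camk2d), against 19.5%. At day 70, 0 were higher, against 3.85%, and 1 lower (Camk2d), against 21.1%. These counts too sit near the background and are no result about the members. The medians of the 9 members were -0.18, -0.00, -0.19, -0.04 and 0.12 from day 21 to day 70, against medians of -0.07, -0.04, -0.06, -0.04 and -0.03 over all genes. Of the 9 members 6, 5, 8, 5 and 3 lay below the control at those days, against 7, 4, 5, 3 and 2 with scaling by the median. The share of all genes below the control was not counted, so these numbers are no result about the members. Scaling by the median in place of the 75th percentile shifts every gene of an array by the same amount, and at day 45 it put the median of all genes at 0.06 and that of the members at -0.07.

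Of the genes past 0.32 in either direction, the share higher was 45.3%, 26.3%, 11.4%, 21.8% and 15.4% at days 21, 35, 45, 55 and 70. With quantile normalization it was 46.2%, 48.4%, 48.7%, 48.7% and 49.2%, and with scaling by the median 44.1%, 43.9%, 28.5%, 35.9% and 28.6%. In the values deposited by the authors it was 48.1%, 47.3%, 44.5%, 42.4% and 42.6%. With normexp it was 57.6%, 22.9%, 11.9%, 23.2% and 11.4%. Quantile normalization gives every array the same distribution of values, which brings higher and lower genes near balance by construction. Scaling by the median only shifts each array by a constant, and it left more lower than higher genes at every day.

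**Figure D3:**
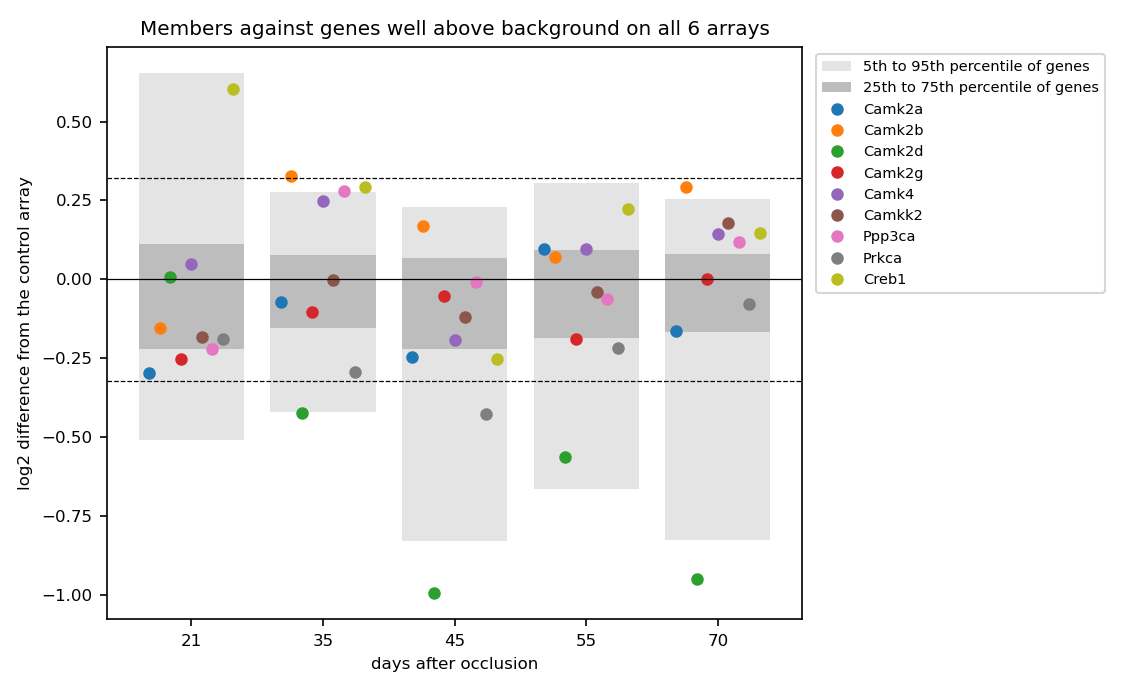
Log2 difference from the control array (vertical axis) at each day after occlusion (horizontal axis). Coloured points are the 9 members, grey boxes the 5th to 95th and 25th to 75th percentiles of the 12377 genes measured above background on every array, and dashed lines mark 0.32 on either side of 0. No member lies outside the outer boxes at days 21 and 55. At day 35 Camk2b, Ppp3ca and Creb1 lie above and Camk2d below, at day 45 Camk2d lies below, and at day 70 Camk2b lies above and Camk2d below.

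Between arrays of the same slide, 2 members were higher by at least 0.32 at day 35 than at day 21 (Ppp3ca and Camk2b), against 13.5% of genes, and 1 was lower (Camk2d), against 17.2%. Creb1 stood at -0.31 in that comparison, just short of the same size. Between days 55 and 45, 3 members were higher (Camk2a, Camk2d and Creb1), against 14.1%, and 0 lower, against 6.76%. At day 70 all 9 members were above day 45 (8 of 9 with quantile normalization, normexp or the authors' values), 3 of them by at least 0.32 (Camk4 at 0.33, Prkca at 0.35 and Creb1 at 0.40), against 8.51% of genes. None was lower by as much, against 5.23%. The median of the members there was 0.13, against 0.02 over all genes, and the share of all genes above day 45 was not counted. Between days 70 and 55, 0 were higher, against 5.48%, and 1 was lower (Camk2d, at -0.39), against 11.5%.

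Genes elsewhere in the pathway were described from 7 lists by role. Of 57 listed genes 56 were compared, Nfatc1 having no named probe. From day 21 to day 70, 5, 3, 0, 0 and 1 of them were higher by at least 0.32, and 14, 4, 10, 7 and 4 were as much lower. The shares over all genes at those days, given above for the members, were 13.8%, 4.67%, 3.02%, 5.43% and 3.85% higher and 16.6%, 13.1%, 23.4%, 19.5% and 21.1% lower. Their medians were -0.12, 0.00, -0.02, -0.04 and 0.01. Apart from Calm2, each gene named below is the one with the highest or lowest difference of its list, at day 21 or over the mean of the late days 45, 55 and 70.

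Among calmodulin genes and its buffers, the brightest Calm2 probe was saturated on 5 arrays and gives no measured course. A dimmer Calm2 probe differed by -0.18, 0.22, 0.12, 0.04 and 0.19 from day 21 to day 70. Another differed by -0.31, 0.03, -0.02, -0.03 and -0.05. Calm3, a calmodulin gene, read 42505 at day 21 and 39014 in the control, a difference of 0.12. Neurogranin (Nrgn), which holds calmodulin in spines at low calcium, read 20992.5 at day 21 and 28096 in the control (-0.42), and it was below the control at all 5 days. Gap43, its presynaptic counterpart, was lower by a mean of -0.31 over the late days.

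All 8 other CaM kinases and CaM kinase II inhibitors were below the control at day 21, from -0.39 (Camk1, which acts in neurite growth) to -0.04 (Camk2n1, an inhibitor protein of CaM kinase II). Their median was -0.27 at day 21, against -0.07 over all genes, and 0.03, 0.06, -0.13 and -0.04 at days 35 to 70. The count at day 21 uses the brightest probe of each gene, and the share of all genes below the control was not counted. Camkk1, the relative of Camkk2, read 2084 at day 21, 3521 at day 35 and 2539 in the control, differences of -0.28 and 0.47, with 0.02 and 0.28 by its second probe. Its mean over the late days was 0.16, the highest of the list, while Camk1g, a CaM kinase I isoform, had the lowest at -0.27.

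Among the other calcineurin genes, Rcan3, a regulator of calcineurin in the dimmest class, read 142 at day 21, 82.3 at day 35 and 48.6 in the control. Its differences were 1.55 and 0.76, and it was at -0.22, 0.27 and 0.52 at days 45, 55 and 70, with spot SDs of 0.21 to 0.26. Under the 8 alternatives its day 45 value ran from -0.84 to 0.32 and its day 55 value from -0.25 to 0.58. The sign of Rcan3 at those 2 days therefore depends on the processing. Akap5, the anchoring protein that holds calcineurin and protein kinase A near glutamate receptors, read 5907 at day 21 and 7852 in the control (-0.41) and was below the control at every day. The median of the 11 genes compared was -0.00 at day 21 and between -0.09 and 0.00 at the other days.

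Of the other protein kinase C isoforms, Prkcd, which needs diacylglycerol but not calcium, read 1078 at day 21 and 459 in the control, a difference of 1.23. At days 35, 45, 55 and 70 it was at 0.40, -0.07, 0.19 and -0.24. Prkcd is also a marker of thalamic neurons. The other 5 thalamic markers measured summed to 1474 in the control and 1508 at day 21. At days 35, 45, 55 and 70 they summed to 2027, 1345, 1768 and 1184. The part of neighbouring tissue in the Prkcd values was not tested. Prkce, an isoform that does not need calcium, was lower at day 21 (-0.38), and Prkcq had the lowest mean over the late days, -0.10.

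**Figure D4:**
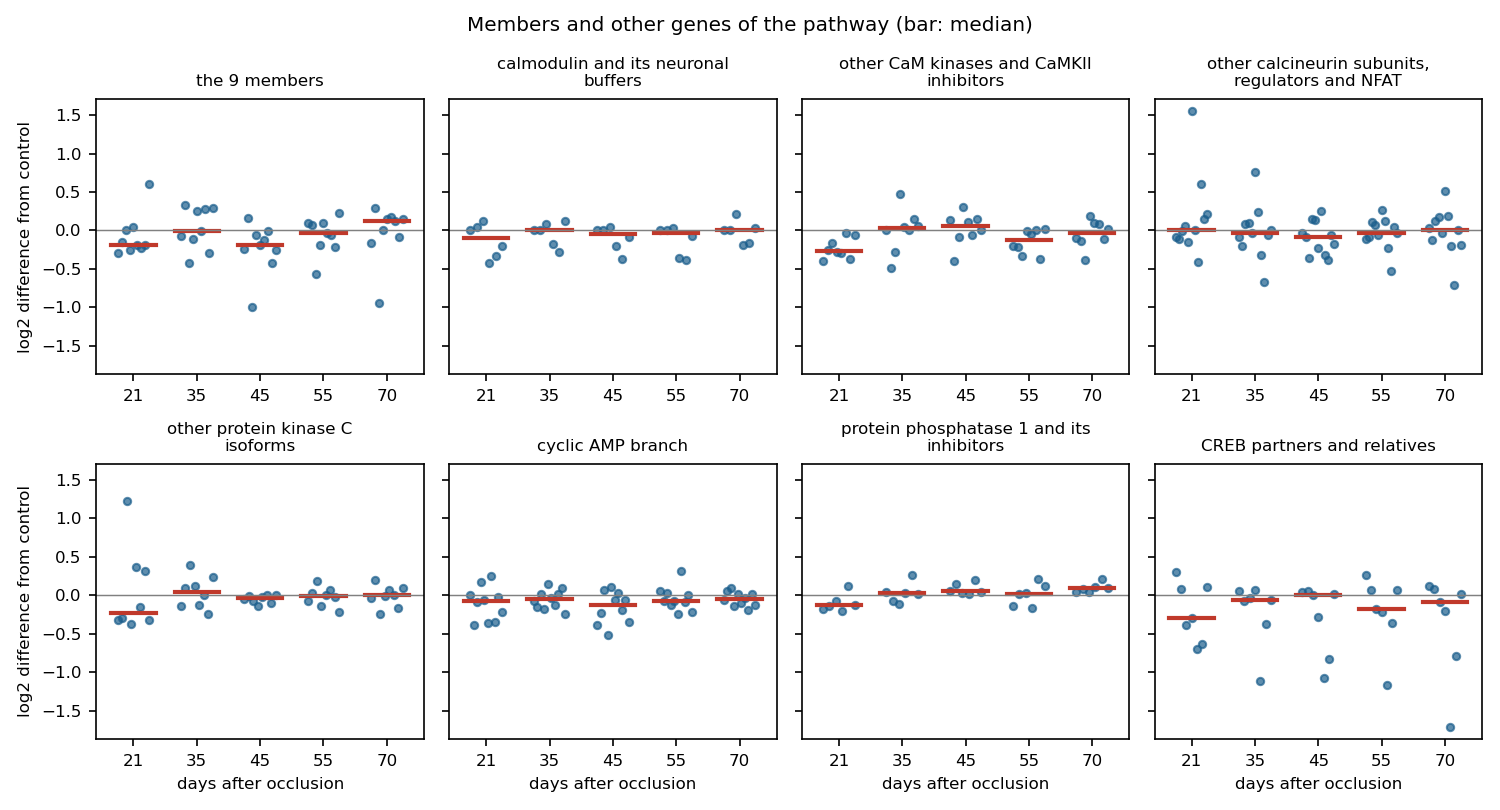
Log2 difference from the control array (vertical axis) at each day after occlusion (horizontal axis) for the 9 members and the 7 other role lists. Points are genes and red bars list medians, with genes saturated on both arrays drawn at 0. The highest points are Rcan3 (1.55) and Prkcd (1.23) at day 21, and the lowest is Crtc3 (-1.71) at day 70.

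In the cyclic AMP branch, the calcium-stimulated cyclase gene Adcy8 read 178 at day 21 and 232 in the control (-0.38), and Prkar2a, a regulatory subunit of protein kinase A and also in the dimmest class, was the highest at 0.25, within its spot SD of 0.29. Prkacb, a catalytic subunit of the kinase, read 808 at day 45 and 1160.4 in the control (-0.52), and its mean over the late days was -0.26. The 6 genes of protein phosphatase 1 and its inhibitors stayed within 0.32 of the control at every day. By the brightest probe of each, 5 of these 6 genes were below the control at day 21. At days 45 and 70, 6 were above it, though at day 70 only 4 were with quantile normalization. At day 45 other probes of these genes lay on both sides of the control, from -0.21 to 0.08. The share of all genes above or below the control was not counted, so these counts are no result about the list. Inhibitor 1 (Ppp1r1a) was the lowest at day 21 (-0.20), DARPP-32 (Ppp1r1b) the highest at day 21 (0.12) and over the late days (0.21), and the catalytic subunit Ppp1ca the lowest over the late days (-0.01). A second, dimmer Ppp1r1b probe lay below the control at all 5 days, at -0.10, -0.09, -0.20, -0.28 and -0.09, opposite in sign to the probe used.

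Among partners and relatives of CREB, Crtc3, a coactivator of CREB, read 145 in the control, 89.2 at day 21, 67.3 at day 35, 68.9 at day 45, 64.5 at day 55 and 44.4 at day 70. All 5 days were below the control, with differences of -0.70, -1.11, -1.07, -1.17 and -1.71. This probe was in the dimmest class, of which 19.5% were at least 2-fold lower at day 70. Against the mean of the other 5 arrays its day 21 value was 0.31, since the later arrays were lower still. Crem, which encodes activators and repressors that bind the same element, was higher at day 21 (0.30) and over the late days (0.14).

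Genes with the profile most like Camk2a, Camk2d and Creb1 were sought among genes well above background on all 6 arrays with a range between 0.5 and 2 times that of the member. For Camk2a, 77 of 8463 genes had an r of at least 0.9, led by Asic1 (0.99), Gas2l1 (0.98) and Hsdl1 (0.98). For Creb1, 92 of 5137 reached it, led by Per1, Pierce1 and Hist1h2ail1 (0.99 each). For Camk2d, 357 of 4189 reached it, led by Tp53inp1, Or10g9b and Lima1 (1.00 each). With 6 arrays that share their scaling, high values of r arise in many genes, and these are given as a description.

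The promoters of the members, 250 bases before to 50 after the start in RefSeq (GRCr8), were searched for TGACG on either strand, which reads CGTCA on the other, the core of the element that CREB binds. It occurred in 21.2% of 33469 rat promoters, and the full palindrome in 1.83%. Camk2a held 2 matches and 1 of the 2 Creb1 entries held 3, with 0 in the other Creb1 entry and in Camk2b, Camk2d, Camk2g, Camk4, Ppp3ca and Prkca. Camkk2 was not searched. Windows of these 2 members are shown because no other entry held a match. Matches are in capitals, and a match is a description of letters, not a site. The Camk2a window is chr18:56649020-56649107 and the Creb1 window, which holds 2 of its 3 matches, chr9:73397419-73397469, both on the plus strand.
Camk2a promoter: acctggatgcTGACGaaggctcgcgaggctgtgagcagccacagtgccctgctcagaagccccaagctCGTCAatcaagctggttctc
Creb1 promoter: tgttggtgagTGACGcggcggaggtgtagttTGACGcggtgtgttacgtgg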

How the data were processed

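Per the file headers, the authors' scanner files were read with Feature Extraction 10.7.3.1 on array design 028282, and the deposited intensity is a processed signal, background-subtracted, of the green channel. The labels name Cy5. The authors also deposited a table of intensity values of 41507 rows, with column medians of 298.0 to 298.4. Its scale is linear, and the steps behind it are not stated in the sources used here.

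Outlier spots were left out, log2 signals were reduced by the 75th percentile of the array, spots of a probe were averaged, and the probe with the highest mean stood for a gene. Names came from RefSeq (GRCr8): 17328 probes by accession, 2632 by symbol, 717 by synonym, 114 by the file's name and 9576 with none. A gene was compared where at least 1 of the 2 arrays was well above background. If the dimmer array was not, its value was replaced by the larger of the probe's own signal and the lowest signal well above background, which makes the difference a bound. Genes saturated on both arrays counted as 0. Scripts were tested on simulated data, with Python 3.11.15, pandas 2.3.3 and limma 3.58.1 (normexp). All 9 members were named. Other pathway genes were named as the highest and lowest of each list at day 21 and over the mean of the late days. Some genes that this rule or the lists hold are not reported here. The members, lists and folds were chosen with earlier results of these data known. The number of arrays limits the precision.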

Additional observations from a re-analysis of the deposited data

Results flagged for a closer look

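Nfatc2, a transcription factor that calcineurin sends to the nucleus, was past 0.32 log2 units in opposite directions at 2 days, with a difference of 0.61 at day 21 and -0.71 at day 70, where the spot SDs were 0.34 and 0.59. It was also lower at days 35, 45 and 55, at -0.67, -0.39 and -0.53. Its probe was well above background on 2 of 6 arrays, so the values at days 35 to 70 are bounds, and the difference between the days was not tested.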

How the results depend on the processing

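No paired analysis was possible because each group has 1 array and the labels give no replicate numbers. Of 360 member values under the 8 alternatives, 289 moved by less than the spot SD, and 29 of 45 differences kept their sign under all 8. Some of these values could not move. All member probes passed the filter for genes well above background on all arrays, and averaging probes changes only the 3 genes with a second probe. The counts therefore overstate how little the values depend on the processing. Of 7 differences past 0.32 log2 units, 3 stayed so under all 8. These were Creb1 at day 21 (0.52 to 0.60) and Camk2d at day 45 (-0.99 to -0.41) and day 70 (-0.95 to -0.49). Against the other 5 arrays in place of the control, Camk2d at day 35 reversed to 0.076 and Crtc3 at day 21 to 0.31, since the baseline then holds the later arrays. Prkca at day 45 was -0.31 with scaling by the median and -0.19 with the mean of its probes, and Camk2b at day 35 was 0.24 with the mean of its probes. Members past 0.32 numbered 3 at day 21 (other 5 arrays), where 2803 of 13594 genes were higher and 1188 lower. At day 35 such members numbered 4 (median scaling), 1 (normexp), 1 (authors' values), 0 (mean of probes) and 0 (other 5 arrays). Of 13956, 13956, 13932, 13962 and 13724 genes compared in these settings, 1029, 288, 813, 710 and 1702 were higher. Those lower numbered 1313, 971, 906, 1848 and 716. At day 45 they numbered 1 with median scaling and 1 with the mean of probes, at day 55 0 with normexp and 0 with the other 5 arrays, and at day 70 2 each with median scaling, normexp and the authors' values. With median scaling the members' median was -0.069 at day 45 and 0.21 at day 70, and that of the other pathway genes 0.068 and 0.10. Genes past 2-fold at days 21 to 70 numbered 754, 217, 872, 778 and 1016, against 270, 55, 123, 105 and 168 with normexp, 482, 105, 214, 245 and 265 in the authors' values, and 431, 71, 464, 315 and 474 among genes well above background on all arrays. Dim probes such as those of Camk2d and Crtc3 lie closest to background, and slide and late days cannot be told apart.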
